A study of Sus scrofa with 10 samples.

Results

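Growth hormone release from the pituitary is set in the hypothalamus by a pair of opposing peptides, and the genes described here are those peptides and their local receptors: GHRH (growth hormone-releasing hormone), SST (somatostatin), and the somatostatin receptors SSTR1 and SSTR2. They were taken by gene name from the expression table of the series, in which these 4 genes occupy 5 of 25009 gene rows, because GHRH is annotated on 2 rows. RNA had been sequenced from the hypothalamus of 10 Iberian x Landrace backcross pigs, 5 with high growth and fatness and 5 with low growth and fatness, called high-growth and low-growth pigs below. Both groups came from the same backcross and tissue, and no agent or allele was named for either. Each gene row carries 1 FPKM value per group (fragment counts scaled to transcript length and library size) and a pair of confidence bounds, so no animal can be seen on its own and no difference has a replicate check. Total counts were not used here and the depth of each sample is unknown.

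GHRH is made by neurons of the arcuate nucleus and drives growth hormone secretion after its release at the median eminence. Somatostatin from periventricular neurons reaches the same capillaries and restrains that secretion, and it is also made by many local inhibitory neurons outside this pathway. SSTR1 and SSTR2 are receptors coupled to inhibitory G proteins, which lower cyclic AMP and quiet the cells that carry them. The comparison asks whether the hypothalamic levels of these control genes differed with the growth and fatness of the pigs.

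Both peptides and both receptors had the higher value in high-growth pigs, and in none of them were the groups separated by their deposited intervals. SST was at 156 FPKM (109 to 204) in high-growth pigs and 114 FPKM (67.1 to 161) in low-growth pigs. GHRH was at 6.96 FPKM (3.48 to 10.4) in high-growth pigs and 5.09 FPKM (1.78 to 8.40) in low-growth pigs on its chromosomal row. The inhibitory peptide and the releasing peptide thus had ratios of high over low of 1.37 each. In bulk tissue, fewer cells of a type and less RNA per cell cannot be told apart.

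SSTR1 was at 4.65 FPKM (2.52 to 6.79) in high-growth pigs and 3.90 FPKM (1.69 to 6.10) in low-growth pigs, a ratio of 1.19. SSTR2 was at 4.61 FPKM (2.43 to 6.79) in high-growth pigs and 3.21 FPKM (1.24 to 5.17) in low-growth pigs, a ratio of 1.44. For each of the 4 genes the value of either group lay inside the interval of the other, as it did for 88.8% of the 15281 rows compared, those with an estimate in both groups and a mean of at least 1 FPKM.

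**Figure D1:**
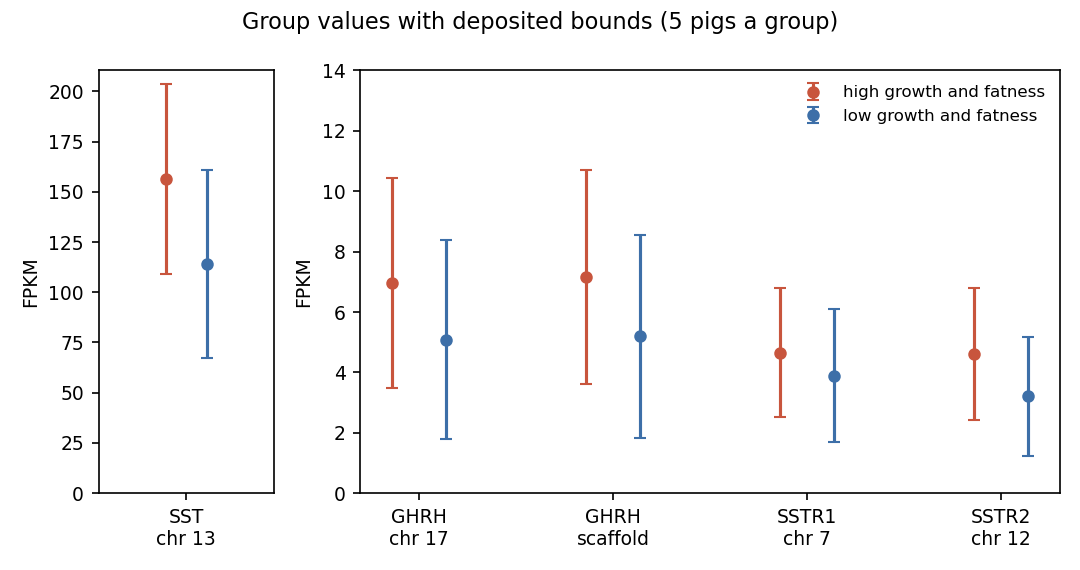
FPKM of SST (left panel) and of the 2 GHRH rows, SSTR1 and SSTR2 (right panel) in high-growth and low-growth pigs; points are the 1 deposited value per group and bars the deposited confidence bounds. All 5 points of high-growth pigs stand above their counterparts in low-growth pigs, and the bars of each pair overlap.

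Non-overlap of intervals was rare in the series, at 70 of 15281 rows or 0.458%, with 0.0262% of rows separated upward in high-growth pigs and 0.432% upward in low-growth pigs. These are 4 and 66 rows, and median-of-ratios scaling gave 7 rows upward in high-growth pigs and 48 upward in low-growth pigs. A count of 0 separated genes among 4 is therefore what the background gives. The bounds leave a wide range for each gene. Taken at their opposite ends, the bounds of SST allow a ratio of high over low from 0.678 to 3.03. The same ends allow 0.414 to 5.87 for chromosomal GHRH, 0.413 to 4.01 for SSTR1 and 0.469 to 5.46 for SSTR2. The data thus leave room for an equal level as well as for a severalfold difference in the 3 genes of low level.

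The direction of the 4 genes was the less common one in the values as deposited. Values were higher in high-growth pigs in 4932 of 15281 rows, 32.3%, and the median log2 difference was -0.10. After scaling that centres the rows, the share was 50.1% by median-of-ratios and 49.3% by quantile normalization. The 4 genes had the higher value in high-growth pigs there too. That is no separate check of their direction, because both scalings moved the rows as a whole toward high-growth pigs. Differences here and below are log2(FPKM + 1) in high-growth minus low-growth pigs, and the added 1 shrinks the differences of genes with few FPKM. SST differed by 0.45, SSTR2 by 0.42, chromosomal GHRH by 0.39 and SSTR1 by 0.21. Of all rows compared, 463 had a larger difference than SST, 545 a larger one than SSTR2, 630 a larger one than chromosomal GHRH and 1671 a larger one than SSTR1. No member reached a ratio of 1.5, which 3.25% of rows reached upward in high-growth pigs and 6.71% upward in low-growth pigs.

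The share of rows with the higher value in high-growth pigs was smaller at high levels, where SST lies. Among 652 rows with a mean of 100 FPKM or more it was 12.3%, with a median difference of -0.29, and 21 of those rows had a larger difference than SST. Among 9079 rows of 1 to 10 FPKM, where GHRH, SSTR1 and SSTR2 lie, it was 39.5%, with a median of -0.06. In that class 445 rows had a larger difference than chromosomal GHRH, 378 a larger one than SSTR2 and 1254 a larger one than SSTR1.

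**Figure D2:**
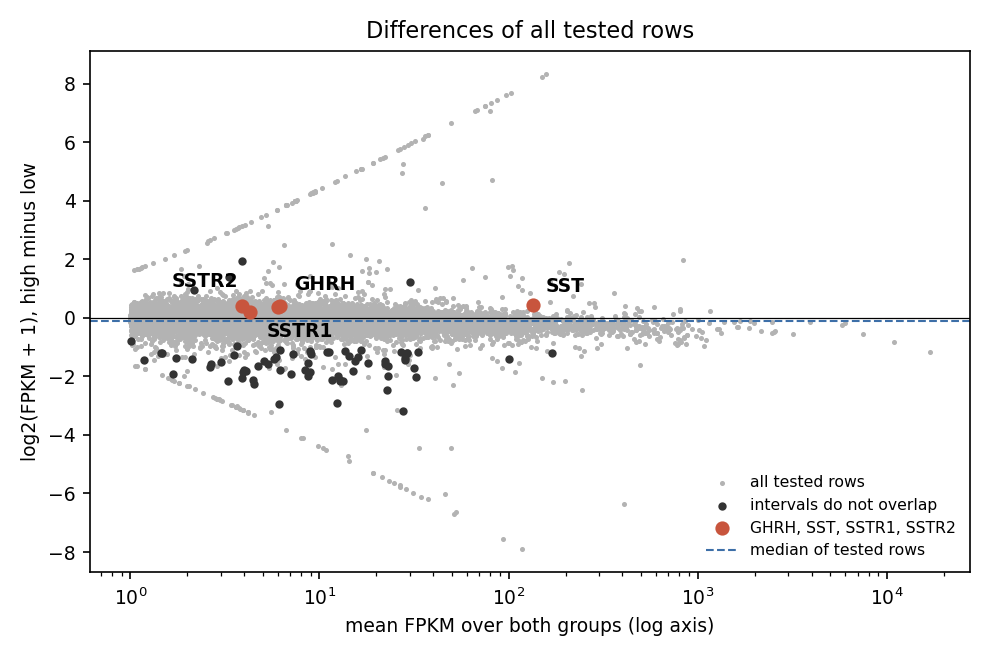
Difference of log2(FPKM + 1), high minus low, against mean FPKM (log axis) for 15281 rows, with the 70 rows whose intervals do not overlap in black, the 5 rows of GHRH, SST, SSTR1 and SSTR2 in red and the median of all rows, -0.10, as a dashed line. The 5 red points lie between 0.21 and 0.45, within the cloud of rows of their level or at its upper edge, and none is among the black points. The diagonal streaks are rows listed at 0 in 1 group.

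The bounds were wider in low-growth pigs. For SST they reached 30.3% of the value to either side in high-growth pigs and 41.0% in low-growth pigs. For chromosomal GHRH this was 50.0% in high-growth pigs and 65.1% in low-growth pigs. The receptor SSTR1 had 45.8% in high-growth pigs and 56.6% in low-growth pigs, and SSTR2 had 47.4% in high-growth pigs and 61.2% in low-growth pigs. Wider relative bounds in low-growth pigs were found in 95.4% of all rows compared. Medians over all rows were 39.3% in high-growth pigs and 45.1% in low-growth pigs. In the class of 1 to 10 FPKM that holds GHRH and both receptors, they were 45.2% in high-growth pigs and 51.3% in low-growth pigs.

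The second GHRH row lies on an unplaced scaffold and gave nearly the same values. It stood at 7.15 FPKM (3.61 to 10.7) in high-growth pigs and 5.19 FPKM (1.83 to 8.56) in low-growth pigs. That is 103% of the chromosomal row in high-growth pigs and 102% in low-growth pigs. A row named RPN2 is the neighbour of GHRH in both places, 1625 bases from the chromosomal copy and 8617 bases from the scaffold copy. The RefSeq gene table of the later assembly Sscrofa11.1 lists 1 GHRH gene, next to RPN2. The level of GHRH is uncertain, because the sources used here do not say how reads that fit both copies were assigned. The sum of both rows was 14.1 FPKM in high-growth pigs and 10.3 FPKM in low-growth pigs, again a ratio of 1.37.

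On build Sscrofa10.2, with positions counted from 1, GHRH (ENSSSCG00000007332) spans 45876581 to 45887092 of chromosome 17, and its second row (ENSSSCG00000026282) spans 14161 to 23667 of scaffold JH118447.1. SST (ENSSSCG00000011808) spans 134620966 to 134622407 of chromosome 13. SSTR1 (ENSSSCG00000001938) spans 66596022 to 66597194 of chromosome 7, and SSTR2 (ENSSSCG00000017249) spans 8064436 to 8065545 of chromosome 12. The receptor rows are short, 1173 bases for SSTR1 and 1110 bases for SSTR2, both multiples of the codon length, whereas that of SST is 1442 bases long. No other row overlaps any of the 5.

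Rows beside the members did not share a direction. RPN2, a subunit of the oligosaccharyltransferase, was at 76.1 FPKM in high-growth pigs and 86.0 FPKM in low-growth pigs next to chromosomal GHRH. The tyrosine kinase gene SRC on its other side was at 11.7 FPKM in both groups. Beside SSTR2, the Golgi gene COG1 was at 18.8 FPKM in high-growth pigs and 17.6 FPKM in low-growth pigs, and the zinc transporter SLC39A11 was at 5.71 FPKM in high-growth pigs and 6.89 FPKM in low-growth pigs. Beside SSTR1, CLEC14A, an endothelial surface lectin, was at 4.50 FPKM in high-growth pigs and 5.71 FPKM in low-growth pigs, and TTC6 was below 0.1 FPKM in both. Next to SST, RTP1, an odorant receptor chaperone, was at 1.40 FPKM in high-growth pigs and 1.08 FPKM in low-growth pigs, while RTP2 was listed at 0 in both. The intervals of all these neighbours overlapped between the groups.

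FPKM is scaled to length, so levels of different genes were set side by side within a group. Such factors also depend on the annotated extent of each row and on how reads were assigned, which is not known for GHRH. SST was 22.5 times chromosomal GHRH in high-growth pigs and 22.4 times in low-growth pigs. Against the sum of both GHRH rows the factor was 11.1 in either group. The proportion of the restraining to the releasing transcript was therefore alike in both groups as point values, although the bounds at their opposite ends allow 10.4 to 58.5 in high-growth pigs and 7.99 to 90.3 in low-growth pigs. SSTR1 and SSTR2 stood close to each other, with an SSTR1 to SSTR2 ratio of 1.01 (0.371 to 2.80) in high-growth pigs and 1.22 (0.327 to 4.91) in low-growth pigs. Within either group these receptors cannot be ordered by level.

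SST was among the most abundant transcripts of the tissue. It ranked 368th in high-growth pigs and 605th in low-growth pigs of the 15281 rows, while chromosomal GHRH ranked 7752nd in high-growth pigs and 9596th in low-growth pigs. SSTR1 ranked 9746th in high-growth pigs and 10782nd in low-growth pigs. SSTR2 ranked 9782nd in high-growth pigs and 11640th in low-growth pigs.

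Among 15 peptide precursor genes, drawn from the lists with their values known, SST was the third most abundant in high-growth pigs and the second in low-growth pigs. In high-growth pigs vasopressin, AVP, stood above it with no overlap of intervals, at 472 FPKM (219 to 725). The melanin-concentrating hormone precursor PMCH, at 167 FPKM (120 to 215), CARTPT, which encodes the appetite-restraining CART peptide, at 115 FPKM (81.6 to 149), and POMC, the melanocortin precursor, at 84.0 FPKM (51.3 to 117), all had intervals overlapping that of SST. In low-growth pigs the interval of AVP, at 354 FPKM (154 to 555), overlapped that of SST as well, and POMC, at 110 FPKM (65.9 to 155), was the next below SST. Oxytocin, OXT, was below SST without overlap in either group, at 55.5 FPKM in high-growth pigs and 34.7 FPKM in low-growth pigs.

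On its chromosomal row, GHRH was 11th of the 15 peptides in both groups. Its interval there overlapped those of galanin (GAL), TRH, AGRP, NPY, HCRT and VIP in each group, so its place among these peptides of low level is not fixed. The sum of both GHRH rows, 14.1 FPKM in high-growth pigs and 10.3 FPKM in low-growth pigs, would place it higher. The related peptide cortistatin, CORT, which binds the same receptors as somatostatin, was at 0.425 FPKM (0 to 1.06) in high-growth pigs and 0.284 FPKM (0 to 0.756) in low-growth pigs. Ghrelin, GHRL, known mainly as a stomach hormone that stimulates growth hormone release, was below 0.1 FPKM in both. Of the 15 peptides 10 had the higher value in high-growth pigs. AVP, PMCH, CARTPT, OXT and HCRT were among them, and POMC, AGRP, NPY and VIP were not.

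**Figure D3:**
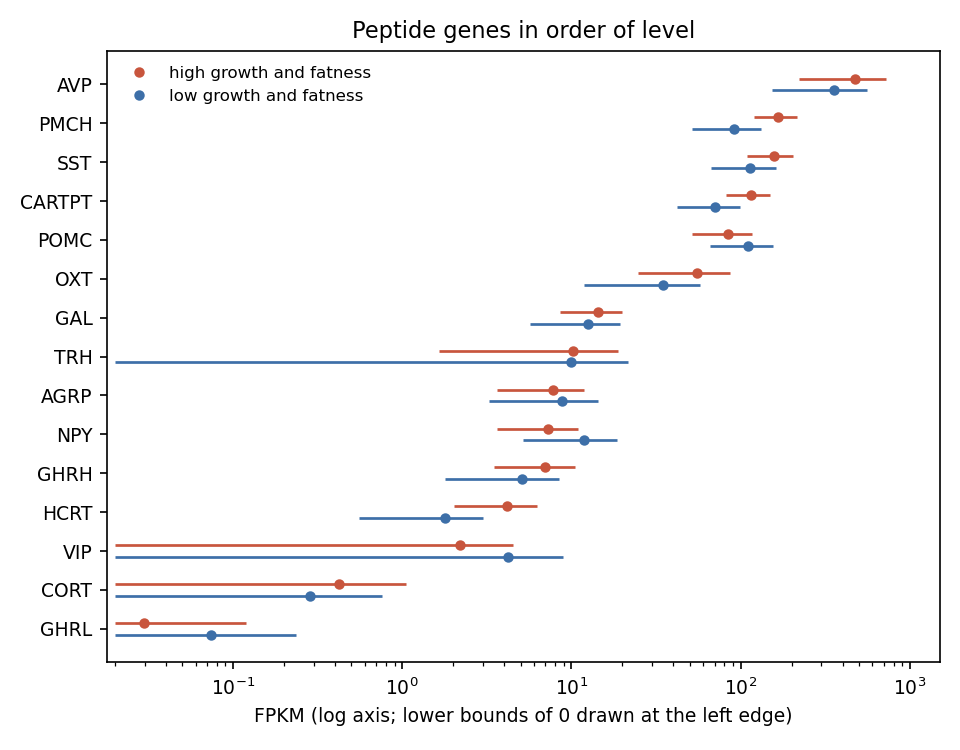
FPKM (log axis) of 15 peptide genes in order of their level in high-growth pigs; points are the deposited group values and lines the deposited bounds, with high-growth pigs above low-growth pigs in each pair. SST stands with PMCH, CARTPT and POMC below AVP, and GHRH, drawn from its chromosomal row, stands among TRH, AGRP, NPY and HCRT.

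Of the other somatostatin receptors only SSTR3 was matched to a row, below the level required for comparison. It was at 0.639 FPKM (0.182 to 1.10) in high-growth pigs and 0.380 FPKM (0.0535 to 0.707) in low-growth pigs. SSTR4 and SSTR5 were not matched to rows and are not analysed here. Of the somatostatin system, 3 genes were compared, SST, SSTR1 and SSTR2, and all were described above.

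The receptors on the releasing side were scarce in the hypothalamus. GHRHR, the receptor for GHRH, which acts chiefly on pituitary somatotrophs, was at 0.225 FPKM (0.00217 to 0.448) in high-growth pigs and 0.213 FPKM (0 to 0.478) in low-growth pigs. The ghrelin receptor GHSR was at 0.438 FPKM (0.0242 to 0.852) in high-growth pigs and 0.297 FPKM (0 to 0.618) in low-growth pigs. MBOAT4, which acylates ghrelin, was at 0.129 FPKM in high-growth pigs and 0.101 FPKM in low-growth pigs. All 3 lie below a mean of 1 FPKM and were not compared.

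Genes through which growth hormone feeds back on the brain had overlapping intervals between the groups. The growth hormone receptor GHR was at 3.68 FPKM (2.11 to 5.24) in high-growth pigs and 3.20 FPKM (1.59 to 4.81) in low-growth pigs. Its kinase JAK2 was at 5.26 FPKM in high-growth pigs and 3.96 FPKM in low-growth pigs, and the transcription factor STAT5B was at 18.8 FPKM in high-growth pigs and 17.6 FPKM in low-growth pigs. STAT5A was at 6.12 FPKM in high-growth pigs and 6.19 FPKM in low-growth pigs on the row used, and its second row was at 1.87 FPKM in high-growth pigs and 1.34 FPKM in low-growth pigs. The feedback inhibitors of this signal, SOCS2 and CISH, were at 1.58 and 2.88 FPKM in high-growth pigs and at 1.74 and 3.32 FPKM in low-growth pigs.

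IGF1, the growth factor induced by growth hormone, was at 0.829 FPKM (0.103 to 1.55) in high-growth pigs and 1.45 FPKM (0.172 to 2.73) in low-growth pigs. Its receptor IGF1R, annotated on 2 rows, was at 4.11 FPKM in high-growth pigs and 3.83 FPKM in low-growth pigs on chromosome 1, the row used. Its scaffold row was at 1.13 FPKM in high-growth pigs and 1.22 FPKM in low-growth pigs. Of 8 compared genes in this list other than GHRH, 4 had the higher value in high-growth pigs and 4 in low-growth pigs, with a median difference of 0.03 against -0.10 over all rows. The second rows of STAT5A and IGF1R each have the direction opposite to the row counted. The count of non-overlapping intervals was 0, against a share of 0.458% of all rows, so it says nothing particular about these genes. GH1 was not matched to a row.

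**Figure D4:**
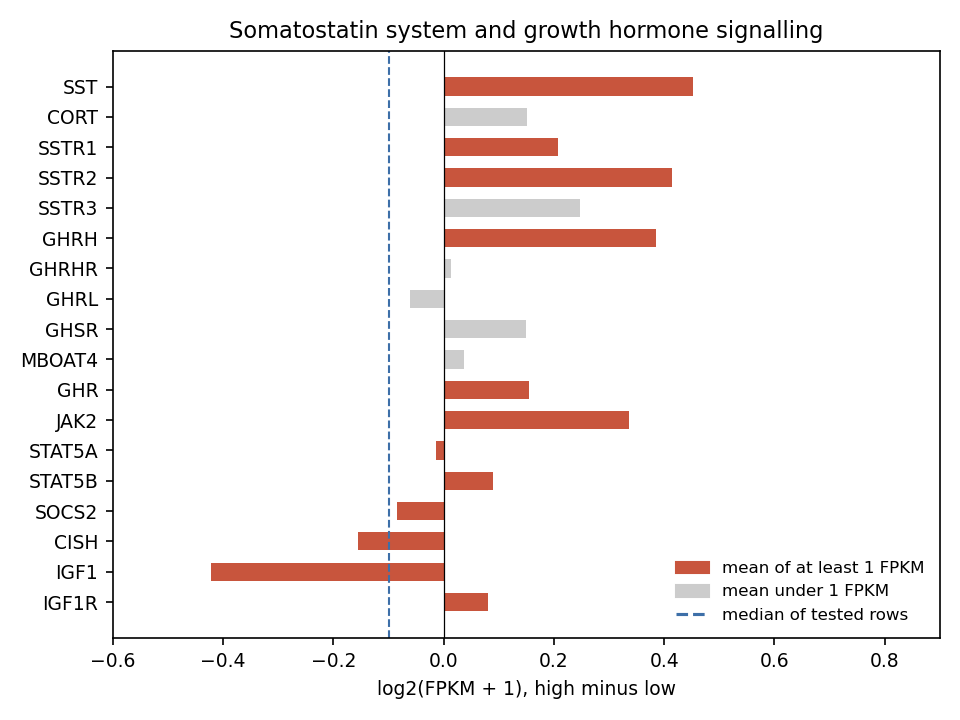
Difference of log2(FPKM + 1), high minus low, for the somatostatin system and the GHRH, ghrelin and growth hormone signalling genes, with grey bars for genes under a mean of 1 FPKM and a dashed line at the median of all rows compared, -0.10. SST, SSTR2 and GHRH have the longest bars to the right, at 0.45, 0.42 and 0.39, and IGF1 the longest to the left, at -0.42.

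Of the transcription factors and transmitter genes of GHRH neurons, 5 of 9 with a row were compared, 3 higher and 2 lower in high-growth pigs. Their median was 0.16, and none had separated intervals, against 0.458% of all rows. GSX1, a homeobox factor needed for GHRH neurons in mice, was at 0.250 FPKM in high-growth pigs and 0.156 FPKM in low-growth pigs, below the level compared. HMX3 was at 1.51 FPKM in high-growth pigs and 1.63 FPKM in low-growth pigs. GAL, a peptide found together with GHRH in rodent arcuate neurons, was at 14.3 FPKM (8.56 to 20.0) in high-growth pigs and 12.4 FPKM (5.65 to 19.2) in low-growth pigs. The estrogen receptor ESR1 was at 3.40 FPKM in high-growth pigs and 2.44 FPKM in low-growth pigs, and DLX1, a factor of inhibitory neurons, was at 3.50 FPKM in high-growth pigs and 3.03 FPKM in low-growth pigs.

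Genes of inhibitory neurons, the wider class to which many somatostatin cells belong, were mixed. Of 10 compared, 6 had the higher value in high-growth pigs and 4 the lower, with a median of 0.16. The GABA-synthesising enzymes GAD1 and GAD2 were at 39.2 and 33.2 FPKM in high-growth pigs and at 32.6 and 23.4 FPKM in low-growth pigs. SST stood at 4.70 times GAD2 (2.53 to 8.72) in high-growth pigs and 4.87 times (2.02 to 11.9) in low-growth pigs. The calcium-binding protein CALB2 was at 50.4 FPKM in high-growth pigs and 47.4 FPKM in low-growth pigs, and CALB1 at 7.40 FPKM in high-growth pigs and 10.6 FPKM in low-growth pigs.

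The most abundant genes for cutting and finishing peptide precursors had nearly equal values in the groups. The carboxypeptidase CPE was at 648 FPKM in high-growth pigs and 661 FPKM in low-growth pigs. The chaperone SCG5 was at 181 FPKM in high-growth pigs and 180 FPKM in low-growth pigs, and the amidating enzyme PAM was at 143 FPKM in high-growth pigs and 145 FPKM in low-growth pigs. The convertase PCSK2, which acts with PCSK1 on many hypothalamic prohormones, was at 38.5 FPKM in high-growth pigs and 37.7 FPKM in low-growth pigs. Over the 8 compared genes of this list the median was 0.02, with 5 higher and 3 lower in high-growth pigs.

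The signalling partners of somatostatin receptors had 6 of 17 compared genes higher in high-growth pigs and 11 lower, with a median of -0.07. None had separated intervals, against 0.458% of all rows. The inhibitory G protein alpha subunit GNAI2 was at 127 FPKM in high-growth pigs and 143 FPKM in low-growth pigs, and its neuronal relative GNAO1 was at 45.9 FPKM in high-growth pigs and 55.5 FPKM in low-growth pigs. The gamma subunit GNG2 was at 142 FPKM in high-growth pigs and 130 FPKM in low-growth pigs. The phosphatase PTPN11 was at 53.2 FPKM in high-growth pigs and 55.6 FPKM in low-growth pigs. Named after its values were seen, CACNA1A, a presynaptic calcium channel subunit, had the largest difference of the list, 0.62, at 14.1 FPKM (9.37 to 18.9) in high-growth pigs and 8.84 FPKM (5.03 to 12.7) in low-growth pigs. A second row of CACNA1A differed by 0.63.

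By likeness of level in both groups, measured as the distance on log2 FPKM among 12164 named rows, the nearest to SST were BHLHB9, TTC3 and GNG2, at distances of 0.09, 0.12 and 0.23. The nearest to SSTR2 were RASGRF2, CACNG2 and SEC31B, all within 0.02, and to SSTR1 CCDC14, SERGEF and SMPD3, within 0.03. FLRT3, BAZ2B and DOPEY1 were nearest to chromosomal GHRH, within 0.05. With 1 value in each of 2 groups, such likeness describes the level and the ratio only.

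Hypothalamic identity was visible in the peptides named above. Of 9 compared hypothalamic markers 7 had the higher value in high-growth pigs, against 32.3% of all rows. The 9 summed to 919 FPKM in high-growth pigs and 684 FPKM in low-growth pigs, with AVP alone at 472 and 354 FPKM. SIM1 and LHX9 were below the level compared and not counted. They were at 0.420 and 0.120 FPKM in high-growth pigs and at 0.507 and 0.231 FPKM in low-growth pigs. NKX2-1 was not matched to a row by symbol and is not in this count or these sums. A row named TTF1, with a mean of 11.4 FPKM and a difference of -0.18, was not counted either. Whether TTF1 is that gene under another name was not checked. The 4 compared anterior pituitary genes, PRL, CGA, LHB and TSHB, all had lower values in high-growth pigs, with overlapping intervals, and summed to 301 FPKM in high-growth pigs and 637 FPKM in low-growth pigs. POU1F1, a factor of several pituitary cell types, among them those that make growth hormone, was at 0.375 FPKM in high-growth pigs and 0.692 FPKM in low-growth pigs. It lies below the level compared, as do FSHB, at 0.513 FPKM in high-growth pigs and 0.986 FPKM in low-growth pigs, TBX19, at 0.917 FPKM in high-growth pigs and 0.874 FPKM in low-growth pigs, and GHRHR, given above.

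All 9 compared meningeal and mural genes were lower in high-growth pigs, 6 of them with separated intervals (COL1A1, COL1A2, COL3A1, DCN, ACTA2 and TAGLN) against 0.432% of all rows in that direction, and they summed to 103 FPKM there and 255 FPKM in low-growth pigs. All 7 compared oligodendrocyte genes had lower values too, with overlapping intervals, and summed to 2794 FPKM in high-growth pigs and 4341 FPKM in low-growth pigs. Among markers of cortex, striatum and thalamus, regions whose interneurons also make somatostatin, PPP1R1B was at 13.5 FPKM in high-growth pigs and 29.7 FPKM in low-growth pigs. TCF7L2 was at 4.70 FPKM in high-growth pigs and 6.02 FPKM in low-growth pigs, and PRKCD was at 7.00 FPKM in high-growth pigs and 7.90 FPKM in low-growth pigs. EMX1, of the cortex, was listed at 0 in high-growth pigs and was at 0.0117 FPKM in low-growth pigs, below the level compared. TBR1 and ADORA2A, also below it, were at 0.160 and 0.537 FPKM in high-growth pigs and at 0.278 and 0.786 FPKM in low-growth pigs. DRD1, below it as well, went the other way, at 0.767 FPKM in high-growth pigs and 0.583 FPKM in low-growth pigs. The part of these tissue differences in the values of GHRH, SST, SSTR1 and SSTR2 was not tested.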

How the data were processed

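Paired-end TruSeq libraries of RiboPure-extracted RNA were sequenced on an Illumina HiSeq instrument, per the labels' protocols. Cufflinks 2.0.2, TopHat2 2.0.5 with Bowtie2, Trim Galore, FastQC, CASAVA and build Sscrofa10.2 are listed in the submitters' processing notes, without settings. The authors deposited FPKM and confidence bounds, 1 value per gene row and group, per the file headers. How animals were combined and the level of confidence are not given in the sources used here.

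Members and lists were chosen with earlier results of these data known. Rows without an OK status in both groups (58) were left out. With 1 value per group no test across animals was possible, and a planned limma fit was not run. A row was called where the deposited intervals did not overlap. Positions in the file count from 0 (8 rows start at 0) and were moved to count from 1. List genes with several rows were represented by the placed row of highest mean. Reference identifiers supplied symbols where the file gave none.

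Named genes were the members, all genes with a row in the somatostatin and growth hormone lists, up to 4 genes of highest mean per other list plus any with separated intervals, 2 neighbours per member and the 3 nearest rows by level. GSX1, CALB1, CACNA1A, POU1F1, FSHB, TBX19, SIM1, LHX9, EMX1, TBR1, ADORA2A, DRD1 and the remaining peptides were named after their values were seen. Alternatives were other pseudocounts, filters, scalings, folds and GHRH rows. Functions were tested on simulated data (Python 3.11.15, pandas 2.3.3). A marker on the list for cortex, striatum and thalamus is not reported here, nor are that list's count and sum.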

Additional observations from a re-analysis of the deposited data

How the results depend on the processing

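The 4 genes kept a higher value in high-growth pigs under every pseudocount and scaling tried. A pseudocount cannot change which of 2 values is larger. Median-of-ratios scaling raised the values of high-growth pigs against those of low-growth pigs. Neither could reverse the direction, so these settings show only how far the size of the difference moved. The log2 difference was 0.39 as reported and 0.40 to 0.49 under the alternatives for GHRH, 0.45 and 0.45 to 0.67 for SST, 0.21 and 0.23 to 0.30 for SSTR1, and 0.42 and 0.46 to 0.52 for SSTR2, and intervals still overlapped after median-of-ratios scaling. The GHRH range includes its scaffold row and the sum of both rows, alternatives chosen after seeing the data. Using that sum took the SST to GHRH ratio to 11.1 in both groups. Calling rows by an FPKM ratio of at least 2 gave 575 rows and of at least 1.5 gave 1522 rows, in place of 70 (4 upward in high-growth pigs, 66 upward in low-growth pigs), since a ratio takes no account of the bounds. By the bounds, median-of-ratios scaling gave 55 rows (7 and 48), no filter 72 (4 and 68) and a mean of at least 5 FPKM 47 (1 and 46). Median-of-ratios scaling brought the median of all rows to 0.00056, because it centres them, and raised the share of rows higher in high-growth pigs from 32.3% to 50.1%. The median of the somatostatin receptor coupling list turned to 0.0396 after that scaling and to 0.0277 after quantile normalization. No paired analysis was possible because single animals have no values of their own, so animals could not be left out in turn either. With no counts in hand, the limits set by depth were not measured.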
